A study of Mus musculus with 7 samples.

Results

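The genes described here are 10 components of PDGF, FGF and HGF signaling, chosen by name: the ligand genes Pdgfa, Pdgfc, Pdgfd, Fgf2, Fgf7, Fgf10 and Hgf, and the receptor genes Pdgfra, Pdgfrb and Fgfr1. All 10 had a row among the 12771 genes of the count table. RNA had been sequenced from cancer-associated fibroblasts (CAFs) of orthotopic pancreatic tumors in male C57BL/6 mice (substrain J), which were 8 weeks old when injected and were killed 2 to 3 weeks later. KPC cells (an established murine line of pancreatic adenocarcinoma) had been injected into the pancreas and carried a non-targeting hairpin (shControl, 3 libraries, replicates 1, 2 and 4) or a hairpin against Brca2 (shBrca2, 4 libraries, replicates 1, 2, 3 and 4), with 1 mouse for each library. The hairpin was a knockdown in the cancer cells of a single line, so Brca2 was not targeted in the CAFs themselves. CAFs were collected by FACS as live CD45-/CD31-/EpCAM-/PDPN+ cells, so fibroblasts without podoplanin were outside the gate. Libraries were made with a variant of MARS-seq, which reads the 3' ends of poly(A) transcripts.

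Platelet-derived growth factors act on fibroblasts and mural cells through the receptor tyrosine kinases PDGFRα and PDGFRβ, which drive proliferation and migration. Fibroblast growth factors need heparan sulfate to bind their receptors and signal largely through ERK, which switches on its own inhibitors. FGF7, FGF10 and HGF are classical messages from stroma to epithelium: fibroblasts secrete them, and epithelial cells carry their receptors, an epithelial isoform of FGFR2 and MET.

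Fgf7, which encodes keratinocyte growth factor, was lower in CAFs from shBrca2 tumors, by 2.41-fold. It was the only gene of the 10 called between the groups, while 9.04% of all tested genes were called. Among the other pathway genes, the FGF ligand genes Fgf18 and Fgf23 were also lower, while the receptor gene Fgfr2, the HGF activation inhibitors Spint1 and Spint2, and the ERK-responsive genes Dusp4, Dusp6, Etv4 and Spred3 were higher. Spry2, another gene of the ERK feedback list, was lower. The keratin genes Krt7, Krt8, Krt18 and Krt19 and the immune markers Csf1r and C1qa were also called higher in shBrca2. The receptor genes Pdgfra, Pdgfrb and Fgfr1 had log2 fold changes between -0.064 and 0.013, and none was called. Fgf7, Fgf23, Fgfr2, Spint1 and Spry2 lost the call in some of the alternative fits given below. Fgf18, Spint2, Dusp4, Dusp6, Etv4 and Spred3 kept it in all of them.

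The libraries held 1898679 to 5990579 counts, and values below are counts normalized with DESeq2 size factors. A gene was called when the adjusted p of the DESeq2 likelihood ratio test was under 0.1, the absolute log2 fold change of shBrca2 over shControl exceeded 0.5 and the mean normalized count exceeded 5. By this rule 9.04% of 12768 tested genes were called, 3.77% higher and 5.27% lower in shBrca2. Scaling by total counts moved the log2 fold changes by a median of 0.11, over genes with a mean normalized count over 5. It moved the higher share of the calls from 41.7% to 58.5%. The fibroblast markers Col1a1, Col1a2, Col3a1, Dcn, Lum, Pdpn, Thy1 and Fap were all measured, and 2 of the 8, Dcn and Lum, were called lower. Their summed level, mostly from the collagen genes and Dcn, was 123900 to 142500 in shControl and 98600 to 118500 in shBrca2. Among the uncalled markers, Col3a1 was at -0.44 and Pdpn at -0.25 on the log2 scale. Col1a1, Col1a2, Thy1 and Fap lay between -0.091 and 0.051. The epithelial list had 4 of 7 measured markers called higher and the groups' sums did not overlap, at 411.7 to 1166 in shControl and 1468 to 2059 in shBrca2. Csf1r and C1qa, 2 of 3 measured immune markers, were also called higher, with list sums of 154.7 to 192.3 and 298.8 to 314.1, in cells gated as CD45-. These sums were mostly Csf1r. C1qa had 2 to 39 counts before scaling and overlapping groups, and Lyz2 was at -0.26 on the log2 scale and not called. Of the 8 listed immune genes, 5, among them Ptprc, Adgre1 and Itgam, had no row. The share of these differences in any result below was not tested. In such sorted bulk samples, fewer cells of one type and less RNA per cell cannot be told apart.

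The FGF ligand genes that were called are shown first by the sequence before their transcription start. The promoters of Fgf7, Fgf18 and Fgf23 are given because these 3 ligand genes were called in the same direction, and capitals mark CpG dinucleotides. The sequences are the 250 bases upstream of the start in RefSeq GRCm38.p6, the assembly that mm10 corresponds to, read 5' to 3' on the gene's strand. They lie at chr2:126034408-126034657 on the plus strand for Fgf7, chr11:33147401-33147650 on the minus strand for Fgf18 and chr6:127072652-127072901 on the plus strand for Fgf23.
Fgf7: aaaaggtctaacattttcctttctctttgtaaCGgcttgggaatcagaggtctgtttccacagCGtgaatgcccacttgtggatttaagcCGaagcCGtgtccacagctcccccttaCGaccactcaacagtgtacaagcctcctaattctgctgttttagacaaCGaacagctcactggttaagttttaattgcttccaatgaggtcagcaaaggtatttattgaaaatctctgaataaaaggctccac
Fgf18: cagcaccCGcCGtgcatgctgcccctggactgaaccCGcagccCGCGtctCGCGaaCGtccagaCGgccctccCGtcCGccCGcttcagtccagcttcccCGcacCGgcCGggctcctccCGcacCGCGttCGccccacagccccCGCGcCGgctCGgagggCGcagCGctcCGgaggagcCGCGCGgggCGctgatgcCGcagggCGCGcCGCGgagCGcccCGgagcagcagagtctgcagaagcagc
Fgf23: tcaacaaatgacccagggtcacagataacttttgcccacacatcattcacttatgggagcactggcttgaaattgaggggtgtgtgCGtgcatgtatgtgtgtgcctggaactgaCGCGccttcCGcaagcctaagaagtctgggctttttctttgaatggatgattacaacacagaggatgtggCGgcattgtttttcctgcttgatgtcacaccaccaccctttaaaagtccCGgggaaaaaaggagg

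The Fgf7 and Fgf23 promoters each held 6 CpGs, equal to the median of 32851 RefSeq promoters, whereas the Fgf18 promoter held 37. Their GC content was 43.6%, 48.4% and 77.2%, against a median of 52.4%. The windows were searched on both strands for TATAAA (in 12.4% of all promoters), the hypoxia-inducible factor core ACGTG (16.6%), the AP-1 site TGANTCA (6.75%), the heat shock element unit GAANNTTC (6.69%) and the serum response factor CArG box (1.47%). None of these strings was in the 250 bases of Fgf7, Fgf18 or Fgf23. RefSeq windows were found for 8 of the 10 genes, all but Pdgfrb and Fgfr1. Among the other members, Pdgfa held a GAANNTTC match in 1 of its windows, Pdgfc a CArG box and Pdgfd a TATAAA, at -188, -17 and -160 relative to the transcription start.

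Fgf7 lies on chromosome 2 at 126034658 to 126091185 (GRCm38.p6, plus strand). The shControl libraries held 160.6, 83.5 and 104.1 normalized counts of Fgf7, and the shBrca2 libraries held 39.6, 75.2, 25.9 and 47.8, here and below in the order of their replicate numbers. Every shBrca2 library was below every shControl library, although the highest shBrca2 library, replicate 2, came close to shControl replicate 2. Of all tested genes, 9.3% had all shBrca2 libraries below all shControl libraries. The mean fell from 116.1 ± 39.9 (SD, n = 3) to 47.1 ± 20.8 (SD, n = 4), with a DESeq2 adjusted p of 0.0073. On the log2 scale the difference was -1.27 ± 0.35 (SE), and its 95% interval ran from -1.96 to -0.58. Without shControl replicate 1, the highest library, the log2 fold change was -0.96 and the DESeq2 adjusted p was 0.138, so the call rested on that mouse. Over the alternatives tried, the adjusted p ran from 0.00016 to 0.171. The highest came from the DESeq2 fit with the replicate number as a block, which did not call Fgf7 either. No exon base of Fgf7 was shared with another gene in GENCODE vM39.

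**Figure D1:**
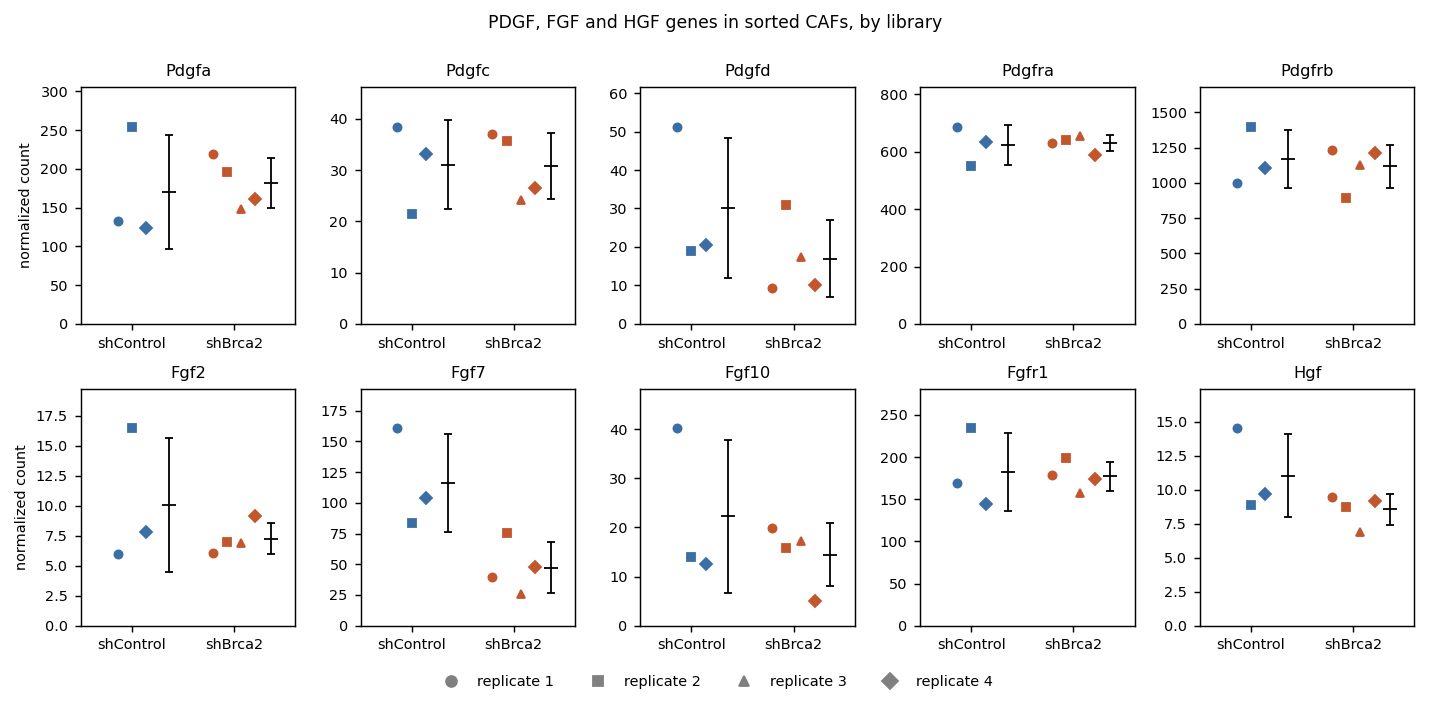
Normalized count of each of the 10 genes (y axis, starting at 0) in each library, by group, with symbols for replicate numbers and bars for the group mean ± SD. The shBrca2 libraries sit wholly below the shControl libraries for Fgf7 and overlap them for the other 9 genes.

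Fgf10 encodes the paralog of FGF7 that also acts on epithelial FGFR2. Its normalized counts were 40.1, 13.9 and 12.6 in shControl, and 19.8, 15.7, 17.3 and 5.08 in shBrca2. shControl replicate 1 was the highest library, as for Fgf7, while the other libraries of both groups overlapped. The log2 fold change was -0.64 ± 0.55 (SE) with a DESeq2 adjusted p of 0.619, and it was 0.12 without shControl replicate 1. The ratio of Fgf7 to Fgf10 was 3.94, 5.58 and 7.71 in shControl and 1.96, 4.64, 1.45 and 8 in shBrca2. The log2 ratios had means of 2.47 ± 0.49 (SD, n = 3) and 1.68 ± 1.13 (SD, n = 4), and the two-sided exact permutation test gave p = 0.4 (0.6 after adjustment over 3 ratios). With 35 ways to divide the libraries, this test cannot give a p below 0.057. A difference between the genes in their response was therefore not detected, with 1 shBrca2 library above and 3 below or inside the shControl range.

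**Figure D2:**
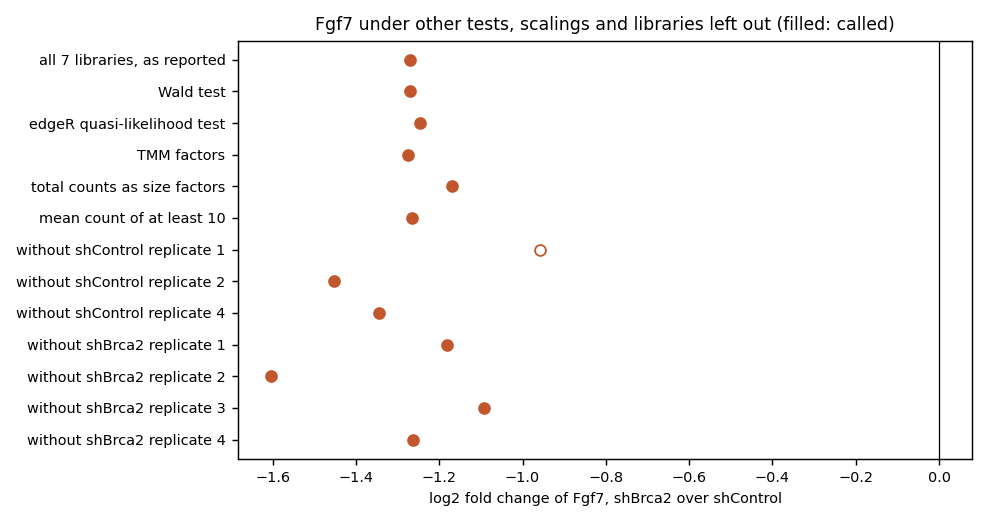
Log2 fold change of Fgf7, shBrca2 over shControl (x axis), under the reported fit, other tests and scalings, and with each library left out. Filled points were called, and the only open point among the fits plotted, -0.96, is the fit without shControl replicate 1. A fit with the replicate number as a block, at -1.09 and also not called, is not plotted.

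Fgf2, the basic fibroblast growth factor that many stromal cells make, had only 4 to 13 counts per library before scaling. Its normalized counts were 5.98, 16.4 and 7.78 in shControl, and 6.02, 6.99, 6.91 and 9.15 in shBrca2. A single library, shControl replicate 2, stood above the other 6. The log2 fold change was -0.43, with a 95% interval from -1.58 to 0.72 and a DESeq2 adjusted p of 0.796. In GENCODE vM39, 44.9% of the exon bases of Fgf2 are shared, mainly with Nudt6 on the opposite strand, and the strand setting of the counting was not given in the sources used here, so reads of the pair cannot be told apart.

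Hgf encodes hepatocyte growth factor, the ligand of MET. Its level was also near the lower limit of these libraries, with 4 to 17 counts before scaling. The normalized counts were 14.5, 8.86 and 9.73 in shControl, and 9.47, 8.74, 6.91 and 9.15 in shBrca2, so the groups overlapped. The log2 fold change of -0.36 had a 95% interval from -1.38 to 0.65 (DESeq2 adjusted p = 0.808), which includes a difference as large as that of Fgf7.

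Pdgfa, Pdgfc and Pdgfd were not called. Pdgfa, which encodes a ligand of PDGFRα, had normalized counts of 132.4, 254.3 and 123.5 in shControl, and 219.4, 196.4, 148.5 and 161.6 in shBrca2. The shControl libraries enclosed all 4 shBrca2 libraries. The difference on the log2 scale was 0.11 ± 0.28 (SE) with a DESeq2 adjusted p of 0.912, and it ranged from -0.076 to 0.51 as single libraries were left out. An antisense gene shares 37.7% of the exon bases of Pdgfa, which leaves the origin of some of its reads uncertain.

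Pdgfc and Pdgfd encode ligands that are secreted in a latent form and are activated by proteases. Pdgfc had normalized counts of 38.4, 21.5 and 33.1 in shControl, and 37.0, 35.6, 24.2 and 26.4 in shBrca2. The group means of Pdgfc were almost equal, at 31.0 ± 8.65 (SD, n = 3) and 30.8 ± 6.43 (SD, n = 4), with a 95% interval of the log2 fold change from -0.66 to 0.66. Pdgfd had normalized counts of 51.3, 19.0 and 20.4 in shControl, and 9.47, 30.9, 17.3 and 10.2 in shBrca2. shControl replicate 1 was again the highest library, and the highest shBrca2 library lay above the other shControl libraries. The log2 fold change of Pdgfd was -0.82 ± 0.52 (SE, DESeq2 adjusted p = 0.435), and -0.19 without shControl replicate 1. The ratio of Pdgfc to Pdgfd was 0.754, 1.12 and 1.59 in shControl and 3.67, 1.15, 1.36 and 2.45 in shBrca2. The mean log2 ratio was higher by 0.81 in shBrca2, and the two-sided exact permutation test gave p = 0.229 (0.6 adjusted).

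Of the 10 genes, the 3 receptor genes varied least from library to library. Pdgfra, the receptor gene that marks most fibroblasts, had normalized counts of 687.6, 549.0 and 633.3 in shControl, and 632.5, 641.2, 656.3 and 590.5 in shBrca2. Its highest library was 1.25 times its lowest, where the median of this ratio over 4625 genes with a mean normalized count of at least 100 was 1.62. The 95% interval of the Pdgfra log2 fold change ran from -0.27 to 0.30. A difference of the size found for Fgf7 lies outside this interval.

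Pdgfrb, which is carried by fibroblasts and also by pericytes, had normalized counts of 999.4, 1397.9 and 1104.1 in shControl, and 1231.5, 893.0, 1129.5 and 1211.5 in shBrca2. The groups overlapped, with the highest value in shControl replicate 2 and the lowest in shBrca2 replicate 2. Its log2 fold change was -0.064, with a 95% interval from -0.43 to 0.30 and a DESeq2 adjusted p of 0.921. It was 0.060 when libraries were scaled by total counts. The summed pericyte markers were 712.4, 1278 and 803.5 in shControl and 1259 to 1665 in shBrca2. Of 8 measured markers 3 were called higher, Notch3, Des and Cox4i2, the last from 0 to 27 counts before scaling. Among the uncalled markers, Kcnj8 (-0.13) and Abcc9 (-0.32) had negative log2 fold changes, and Rgs5, Cspg4 and Mcam positive ones. Within shControl the sum had the same order as Pdgfrb, which itself was not called between the groups. Des alone (344.2, 823.6 and 409.5) was the largest part of that sum and had this order too. Smooth muscle markers summed to 2153 to 4091 in shControl and 2411 to 4441 in shBrca2, and 1 of 5, Acta2, was called higher.

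The ratio of Pdgfra to Pdgfrb was 0.688, 0.393 and 0.574 in shControl, and 0.514, 0.718, 0.582 and 0.488 in shBrca2. The shBrca2 values lay within or just above the shControl range. The mean log2 ratios were -0.90 ± 0.41 (SD, n = 3) and -0.81 ± 0.25 (SD, n = 4), and the two-sided exact permutation test gave p = 0.743. Fgfr1, the main FGF receptor gene of mesenchymal cells, had normalized counts of 169.1, 234.0 and 144.0 in shControl, and 179.0, 198.8, 157.2 and 173.8 in shBrca2. All 4 shBrca2 libraries of Fgfr1 fell inside the shControl range. The log2 fold change of Fgfr1 was -0.028, with a 95% interval from -0.45 to 0.39 and a DESeq2 adjusted p of 0.957, and total-count scaling turned it to 0.086.

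**Figure D3:**
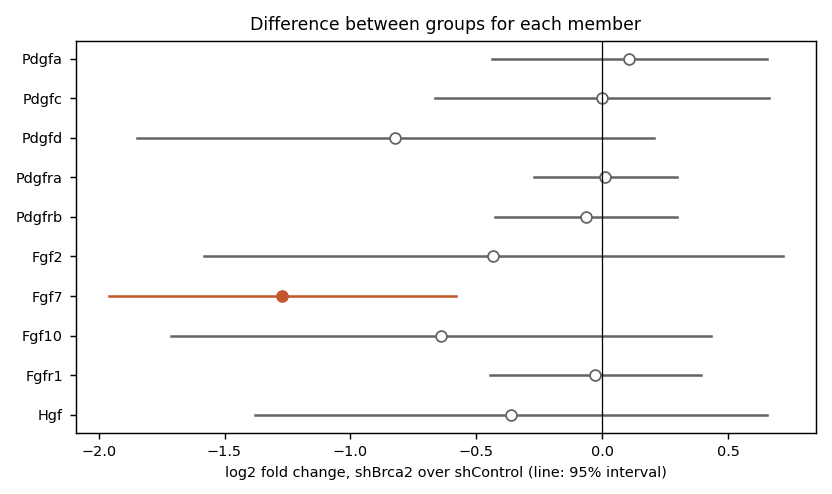
Log2 fold change of each of the 10 genes, shBrca2 over shControl (x axis), with its 95% interval as a line. The interval of Fgf7, from -1.96 to -0.58, is the only one that excludes 0, and those of Fgf2, Hgf, Fgf10 and Pdgfd are the widest.

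In all 10 genes the SD of the normalized counts was larger in shControl than in shBrca2, which held for 53.1% of the tested genes. In each of the 10 the highest of the 7 libraries was a shControl library: replicate 1 for Pdgfc, Pdgfd, Pdgfra, Fgf7, Fgf10 and Hgf, and replicate 2 for Pdgfa, Pdgfrb, Fgf2 and Fgfr1. A shControl library was the highest in 47.9% of the tested genes. shControl replicate 1 also had the lowest summed levels of the epithelial (411.7), mesothelial (910.6) and pericyte (712.4) markers. Whether this cell composition bears on its high Fgf7, Fgf10 and Pdgfd was not tested. Over the 10 genes the median log2 fold change was -0.21, against 0.0079 over all tested genes. At the DESeq2 threshold above, 1 of 10 was called lower and 0 higher. This share of 10% was near the 9.04% of all tested genes. None of the 10 had all shBrca2 libraries above all shControl libraries, a pattern found in 7.79% of the tested genes. Only Fgf7 had an unadjusted p under 0.05, compared with 2262 of the 12768 tested genes, and edgeR's quasi-likelihood test also called Fgf7 alone among the 9 genes it tested.

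Beyond the 10 genes, 78 of 100 listed genes of the same pathways were measured. Of these, 11 were called higher and 7 lower, 23.1% of the measured genes beside 9.04% of all tested genes, and their median log2 fold change was -0.0029. Both directions were thus present, and they differed between the lists. When genes too low to be called (mean of 5 or less) were left out, the background share was 9.92%. The lists were drawn up after earlier results of these data were known. Their higher share of calls therefore cannot show that these pathways changed more than other genes. Genes without a row were not analysed here.

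**Figure D4:**
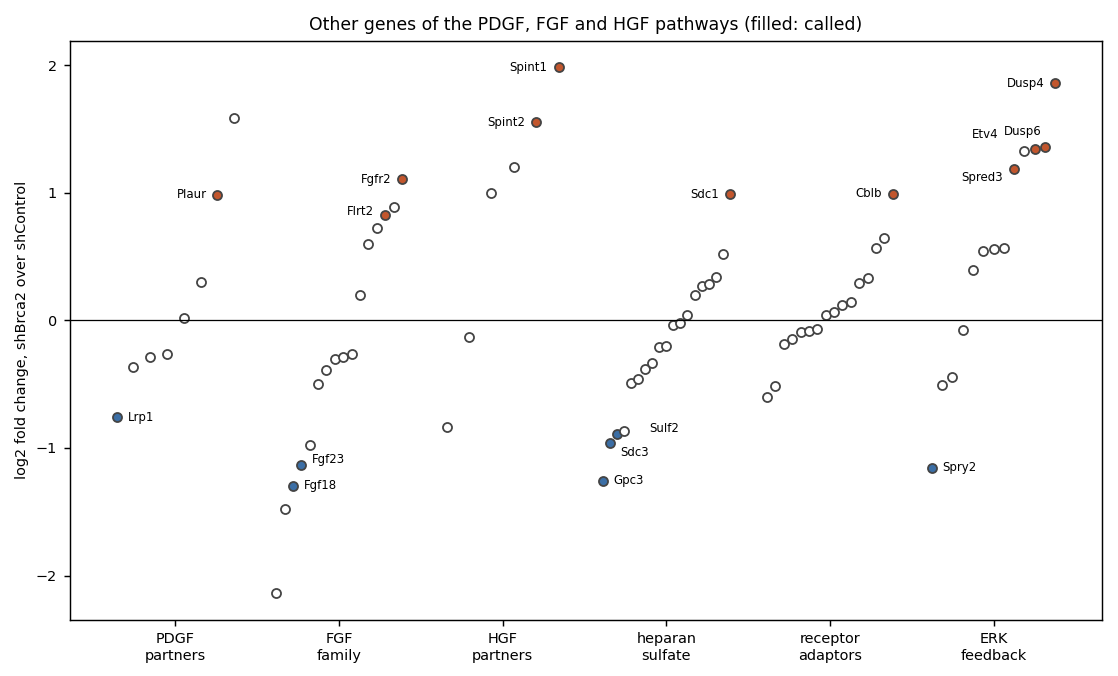
Log2 fold change, shBrca2 over shControl (y axis), of the 78 measured pathway genes in 6 lists, ordered by value within each list; filled and named points were called. In the HGF partner and ERK feedback lists most called genes lie above 0, and in the heparan sulfate list 3 of 4 called genes lie below 0.

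In the FGF family list 16 of 32 genes were measured, with 2 called higher and 2 lower and a median log2 fold change of -0.30. Fgf18, a paracrine ligand gene of bone and lung development, had normalized counts of 338.3, 404.8 and 374.5 in shControl, and 123.1, 203.4, 165.8 and 112.8 in shBrca2. The groups did not overlap, with the lowest shControl library above the highest shBrca2 library. Fgf18 fell by 1.30 ± 0.23 (SE) on the log2 scale, its DESeq2 adjusted p was 3e-06, and Fgf18 stayed called in every alternative, with values from -1.49 to -1.18. Fgf23, which encodes a circulating hormone that lowers phosphate, had 82.0, 41.8 and 82.7 in shControl and 37.0, 43.7, 20.7 and 21.3 in shBrca2. The groups of Fgf23 overlapped at replicate 2, and its log2 fold change of -1.13 (DESeq2 adjusted p = 0.0277) lost the call without shControl replicate 1 (0.200), shControl replicate 4 (0.186) or shBrca2 replicate 4 (0.138).

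Fgfr2, the receptor gene through which FGF7 and FGF10 act on epithelium, had normalized counts of 22.2, 39.2 and 48.6 in shControl, and 88.6, 46.1, 89.8 and 92.5 in shBrca2. Of the shBrca2 libraries 3 were high and replicate 2 lay inside the shControl range. Fgfr2 was higher by 1.11 ± 0.35 (SE) on the log2 scale (DESeq2 adjusted p = 0.0313). It was not called without shControl replicate 1 (adjusted p = 0.264), shBrca2 replicate 1 (0.135) or shBrca2 replicate 4 (0.132). Reads of 3' ends do not separate the epithelial from the mesenchymal isoform of Fgfr2. Flrt2, a membrane protein gene whose family binds FGF receptors, rose by a log2 fold change of 0.82 ± 0.20 (SE, DESeq2 adjusted p = 0.0022), with no overlap between the groups.

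Of the HGF partners, 6 of 8 were measured and 2 were called, both higher, with a median log2 fold change of 1.10 for the list. Spint1 and Spint2 encode Kunitz-type inhibitors of the proteases that activate pro-HGF, and epithelial cells are a well-known source of them. Spint2 had normalized counts of 13.7, 20.2 and 42.8 in shControl, and 84.3, 67.0, 60.5 and 87.4 in shBrca2. The groups did not overlap, and the log2 fold change was 1.55 ± 0.36 (SE, DESeq2 adjusted p = 0.0012). Spint1 had 0, 7.59 and 7.78 in shControl and 28.4, 14.6, 20.7 and 14.2 in shBrca2, from at most 33 counts before scaling. Its log2 fold change of 1.98 (DESeq2 adjusted p = 0.0375) lost the call without shControl replicate 1 (1.33, adjusted p = 0.302) or shBrca2 replicate 1 (1.73, adjusted p = 0.246). Met, the HGF receptor gene, had a log2 fold change of 1.0 and was not called (DESeq2 adjusted p = 0.348).

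The epithelial markers moved in the same direction as Fgfr2, Spint1 and Spint2. Their sum was 411.7, 803.3 and 1166 in shControl, and 1918, 1468, 1636 and 2059 in shBrca2. Within shControl the sum, Fgfr2, Spint1 and Spint2 all had their lowest value in replicate 1 and their highest in replicate 4. The mesothelial marker sum had that order too, at 910.6, 1409 and 3000, so the order is not particular to the epithelial list. Between the groups the mesothelial sums overlapped, with 2029 to 2660 in shBrca2. Krt7, Krt8, Krt18 and Krt19 were the 4 epithelial markers called higher, and the EpCAM-negative gate should have removed cells with that surface protein. The measured markers other than keratins were not called. Their log2 fold changes were 1.59 for Cdh1 (1 to 17 counts before scaling), 0.58 for Cldn7 (0 to 9 counts) and 0.015 for Muc1. Epcam and Cldn4 had no row. The part of epithelial RNA in the 3 genes was not tested.

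**Figure D5:**
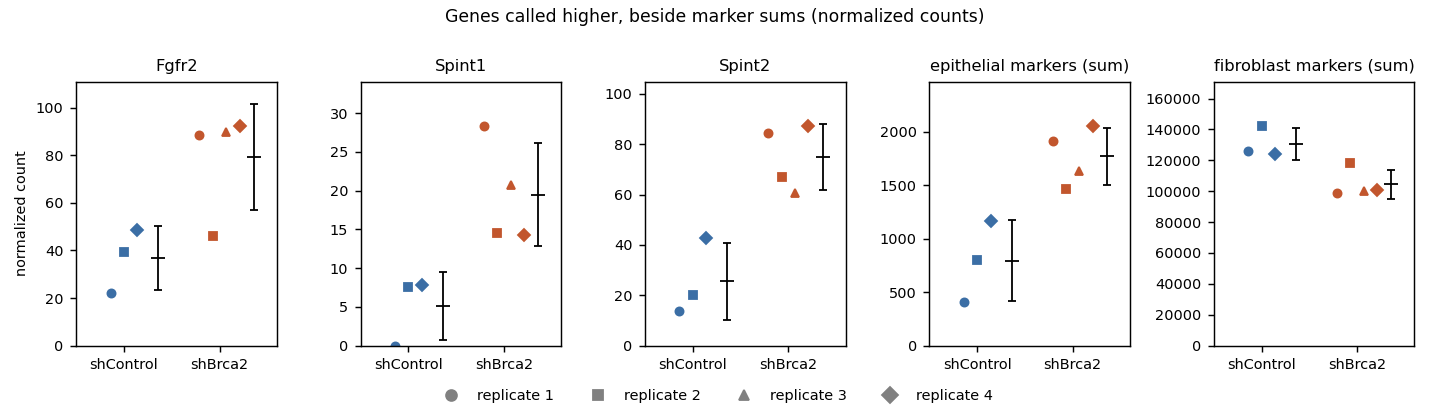
Normalized counts of Fgfr2, Spint1 and Spint2 and the summed normalized counts of the epithelial and fibroblast marker lists (y axes, starting at 0), in each library, with group mean ± SD. The epithelial sum is 411.7 to 1166 in shControl and 1468 to 2059 in shBrca2, and the fibroblast sum is lower in all 4 shBrca2 libraries.

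Among genes of heparan sulfate, the co-receptor sugar of FGF and HGF, 19 of 20 were measured, with 1 called higher and 3 lower. Gpc3, a glypican core protein gene, fell from 238.2 ± 60.8 (SD, n = 3) to 101.2 ± 20.7 (SD, n = 4) normalized counts (log2 fold change -1.26, DESeq2 adjusted p = 1.7e-05). Sdc3, a syndecan core protein gene, fell by 0.96 on the log2 scale (DESeq2 adjusted p = 0.0029). Sulf2, whose product trims sulfate groups from heparan sulfate outside the cell, fell by 0.89 (DESeq2 adjusted p = 0.0023). The groups did not overlap for Gpc3, Sdc3 or Sulf2, while Sdc1, the syndecan gene typical of epithelium, was called higher (0.99, DESeq2 adjusted p = 0.0107) with overlapping groups.

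All 8 PDGF partners were measured, with 1 called in each direction and a median log2 fold change of -0.12. Plaur, the gene of the urokinase receptor, rose from 402.1 ± 125.1 (SD, n = 3) to 792.7 ± 85.5 (SD, n = 4) normalized counts (log2 fold change 0.98, DESeq2 adjusted p = 0.00047). Lrp1, an endocytic receptor gene whose product associates with PDGFRβ, fell from 6865 ± 487 (SD, n = 3) to 4062 ± 909 (SD, n = 4), or by 0.76 on the log2 scale (DESeq2 adjusted p = 0.0023). Neither gene had overlapping groups. Both kept the call in every alternative, while Pdgfa, Pdgfc, Pdgfd, Pdgfra and Pdgfrb were called in none.

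Receptor adaptors gave 1 call among 16 measured of 18, a share of 6.25%, with a median log2 fold change of 0.05. Cblb, a ubiquitin ligase gene whose product turns over receptors, was that gene, at 0.99 (DESeq2 adjusted p = 0.0825), and its call was lost when any library but shControl replicate 2 was left out. ERK feedback and target genes had 5 calls among 13 measured of 14, with 4 higher and 1 lower and a median log2 fold change of 0.56. Dusp4 and Dusp6, phosphatase genes that restrain MAP kinases, had log2 fold changes of 1.86 (DESeq2 adjusted p = 6e-06) and 1.36 (0.0085). Etv4, an ETS factor gene downstream of ERK, and Spred3, a Ras pathway inhibitor gene, had 1.34 (0.0070) and 1.19 (0.0013). Spry2, which encodes a feedback inhibitor of receptor tyrosine kinases, was lower by contrast, at -1.15 (0.0575), from 6 to 35 counts before scaling. Every fit that left out a library lost the call of Spry2. Among the uncalled genes of this list, Spry1 (-0.44), Spry4 (-0.072) and Il17rd (-0.50) had negative log2 fold changes. Those of Spred1, Spred2, Dusp5, Etv1 and Etv5 were positive.

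The genes whose counts followed Fgf7 most closely from mouse to mouse within the groups were Slain2 (Pearson's r = 0.996), Cybc1 (0.990) and Smc3 (0.990), over 7 libraries and 6734 genes with a mean normalized count of at least 50. None of the 3 was called between the groups. In all, 135 genes had r above 0.9, and the libraries share depth and composition, so these values only describe the 7 samples.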

How the data were processed

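Mouse CAF RNA was measured by 3' end sequencing in 7 libraries, grouped by the hairpin in their labels. The authors deposited raw counts per gene, not normalized. The submitters' processing notes name mm10, bcl2fastq, cutadapt, STAR 2.4.2a, HTSeq and DESeq2. The annotation, strand setting and any collapsing of molecular barcodes were not given in the sources used here, so counts may include PCR copies.

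The comparison was run here with DESeq2 1.42.0 (R 4.3.3), by a likelihood ratio test on all 7 libraries with no covariate, Benjamini-Hochberg adjustment over 12768 genes and unshrunken fold changes. 3 genes had no p. Ratios were taken between counts before scaling, each plus 1, and their log2 values were compared by two-sided exact permutation tests. Alternatives were the Wald test, edgeR 4.0.16 (quasi-likelihood, TMM), TMM or total-count scaling, a filter at a mean count of 10, a pseudocount of 0.5, a replicate block and leaving out each library. The code was tested on simulated data. Total counts of 1898679 to 5990579 set the precision.

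The 10 genes and all lists (PDGF partners, FGF family, HGF partners, heparan sulfate, receptor adaptors, ERK feedback, and fibroblast, pericyte, smooth muscle, epithelial, mesothelial, immune and endothelial markers) were chosen with earlier results of these data known. Named were all 10 genes, each called pathway gene and the 3 genes most like a called member. Other genes in the text were picked after their values were seen. Of the remaining marker lists, 0 of 8 mesothelial genes were called (sums 910.6 to 3000 in shControl, 2029 to 2660 in shBrca2) and 0 of 5 measured endothelial genes (76.0 to 135.2 and 98.4 to 147.2). The endothelial sums were mostly Kdr, whereas Pecam1, Vwf and Tek were lower in every shBrca2 library than in any shControl library. Pecam1 was at -3.60 on the log2 scale (DESeq2 adjusted p = 0.0311) and was not called because its mean normalized count, 3.87, was under 5. Exon overlaps were taken from GENCODE vM39 on GRCm39, in which 7 of the 10 genes share exon bases with another gene.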

Additional observations from a re-analysis of the deposited data

Results flagged for a closer look

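In 31 groups of 4 libraries tested for a library that stands apart (Dixon's test), chance gives about 1 in 20, and 2 stood out, both in shBrca2 replicate 2. Fgfr2 had 46.05 normalized counts in that library, while the other 3 shBrca2 libraries held 88.64 to 92.49. Dusp4, the MAP kinase phosphatase gene, had 59.45 there against 79.45 to 83.47 in the others, which is still above every shControl library. The epithelial marker sum of shBrca2 replicate 2, 1468, was also the lowest of its group. The part of that difference in either gene was not tested.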

How the results depend on the processing

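Of 126 refits of the 10 genes, 104 kept the direction and the side of the threshold, and those that did not are given here. The cause was not tested in any case. With libraries scaled by total counts, Pdgfc was at 0.11, Pdgfrb at 0.060 and Fgfr1 at 0.086 on the log2 scale. With the filter at a mean count of 10, Pdgfc was at 0.0048. Leaving out 1 library at a time gave -0.076 to 0.51 for Pdgfa, -0.19 to 0.18 for Pdgfc, -0.071 to 0.088 for Pdgfra, -0.17 to 0.083 for Pdgfrb, -0.72 to 0.079 for Fgf2, -0.93 to 0.12 for Fgf10 and -0.17 to 0.18 for Fgfr1, and -0.14 to 0.26 for the log2 ratio of Pdgfra to Pdgfrb. It left 261 to 610 genes called higher and 354 to 695 called lower over all genes, and 0 to 1 called lower among the 10, with 0 without shControl replicate 1. The number of genes called higher under total-count scaling was 708 and that of genes called lower 502. Same-numbered libraries did not deviate together (correlations of -0.066, -0.098 and -0.095), and no library correlated best with its own number. The numbers were therefore not taken as pairs, although the labels do not say whether same-numbered mice were handled together. A fit with the replicate number as a block called 211 genes higher and 280 lower and 0 of the 10 genes, with Fgf7 at -1.09 (DESeq2 adjusted p = 0.171), Pdgfc at 0.11 and Fgfr1 at 0.036. The blocked ratios differed by 0.071 (Pdgfra to Pdgfrb), 0.98 (Pdgfc to Pdgfd) and -0.41 (Fgf7 to Fgf10). Of 18 called pathway genes, 13 were called in every alternative that gave a value, and Fgf23, Fgfr2, Spint1, Cblb and Spry2 were not. Over all alternatives 8 to 14 of the 78 pathway genes were called higher and 5 to 9 lower. Fgf2 was not tested by edgeR or with the filter, and Fgf2 and Hgf had no adjusted p under the block. Depth limits Fgf2 and Hgf above all, with 17 counts or fewer per library, and 3 and 4 mice limit every gene.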

Other observations

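Besides the 18 called pathway genes, 10 more of the 78 had an unadjusted p under 0.05 in the DESeq2 test and missed the threshold. They are named because of their values. Pdgfb, a ligand gene that endothelial cells and platelets use to recruit pericytes, had a log2 fold change of 1.58 with an adjusted p of 0.172, from 2 to 20 counts per library. Plat, the gene of tissue plasminogen activator, which cleaves latent PDGF-CC, had 0.30 (DESeq2 adjusted p = 0.189) with every shBrca2 library above every shControl library. Frs2, the docking protein gene that links FGF receptors to ERK, had 0.59 (0.174), also without overlap. In the heparan sulfate list, Sdc2 (-0.46), Gpc6 (-0.87), Ext1 (-0.38) and Ext2 (-0.49) had negative values, as did Fgf9 (-2.14, from at most 9 counts), Fgfbp3 (-1.48) and Pik3r1 (-0.52).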
